A study of Mus musculus with 12 samples.

Results

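The genes described here are 10 genes of neutrophil granules and of calprotectin: S100a8, S100a9, Ltf, Camp, Ngp, Lcn2, Fcnb, Cd177, Mmp8 and Mmp9. They were taken by name, and they are 10 of the 53465 genes in the deposited expression table. The set was chosen by earlier results on these same libraries, in which the difference between the genotypes after 5-fluorouracil (5-FU) stood out, and the values of the untreated cells were then known too. Levels, fold changes and numbers of calls of these genes that rest on the 5-FU libraries are therefore a description from which nothing is read, and the comparison of untreated cells is the one whose test uses none of those libraries.

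RNA-seq was performed on LSKs, the Lin- Sca-1+ c-Kit+ cells of bone marrow that hold the stem cells and early progenitors of blood, from Tespa1+/+ and Tespa1-/- mice. Each genotype was studied untreated and at day 9 after a single intraperitoneal dose of 150 mg/kg 5-FU, a drug that kills dividing cells, with 3 libraries in each of the 4 groups. The Tespa1-/- mice carried the allele of the line B6.129S-Tespa1 tm1Smoc, backcrossed to C57BL/6, the Tespa1+/+ mice were littermates, and all were males of 8 to 10 weeks. Neither the labels nor the methods say whether the 3 libraries of a group came from separate mice, so p-values measure the spread between these samples, which may be technical.

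Neutrophils build their granules in sequence while they mature in the marrow. Primary granules, filled with myeloperoxidase and serine proteases, form at the promyelocyte stage. Secondary granules follow at the myelocyte and metamyelocyte stages and carry lactoferrin, cathelicidin and lipocalin, tertiary granules carry gelatinase, and the cytosol fills with calprotectin, the dimer of S100A8 and S100A9. The switch from primary to secondary granule genes is known to need the transcription factors C/EBP epsilon and GFI1. Stem cells and multipotent progenitors, which LSKs contain, are upstream of both stages.

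Libraries held between 22118154 and 28275079 counts on genes. A detection limit of 3 counts equals 0.107 to 0.136 CPM, where CPM is the count scaled to a common library size with TMM factors, and it covers counting error only. Tespa1 itself was at 46.5 ± 3.41 CPM (SD, n = 3) in untreated Tespa1+/+ and 34.8 ± 0.235 CPM (SD, n = 3) in untreated Tespa1-/- LSKs. After 5-FU it was at 53.2 ± 5.37 and 19.3 ± 1.82 CPM (SD, n = 3 each). The fitted log2 fold changes were -0.42 untreated, short of the fold threshold, and -1.47 after 5-FU (adjusted p of 0.0316 and 9.4e-05 from edgeR). Reads on the gene thus remained in the Tespa1-/- libraries, and counts over the whole gene do not show which part of it is deleted.

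After 5-FU, all 10 genes were abundant in the 3 Tespa1-/- libraries and low or undetected in the 3 Tespa1+/+ libraries. The 10 genes together held 29345, 27764 and 23731 counts in Tespa1-/- LSKs after 5-FU, which was 0.107% of all counts in each library. In Tespa1+/+ LSKs after 5-FU they held 231, 95 and 141 counts in all. The untreated Tespa1-/- libraries held 110, 120 and 136 counts and the untreated Tespa1+/+ libraries 30, 44 and 17. On the CPM scale the sum in Tespa1-/- LSKs after 5-FU was 1073, 1076 and 1072, whereas the highest sum in the other 9 libraries was 9.01 CPM. In bulk RNA, more cells of a type and more RNA per cell cannot be told apart.

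**Figure D1:**
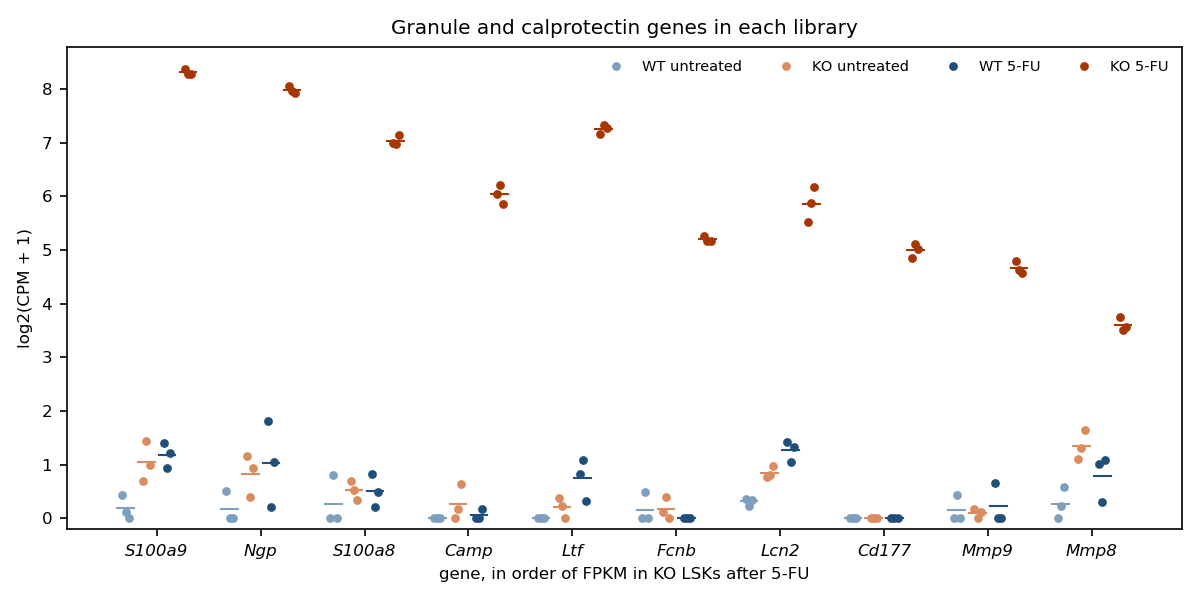
Level of each of the 10 genes in each of the 12 libraries, as log2(CPM + 1) on the vertical axis, with genes ordered along the horizontal axis by FPKM in Tespa1-/- (KO) LSKs after 5-FU and WT standing for Tespa1+/+. Points are libraries and short lines are the means of 3; the KO 5-FU points of every gene lie above every other point of that gene, and Mmp8 has the smallest gap.

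S100a8 and S100a9 encode the subunits of calprotectin, a calcium- and zinc-binding protein that makes up much of the neutrophil cytosol. S100a9 (ENSMUSG00000056071) had 8965, 8024 and 6853 counts in Tespa1-/- LSKs after 5-FU and 42, 24 and 32 counts in Tespa1+/+ LSKs after 5-FU. Untreated, it had 14, 39 and 23 counts in Tespa1-/- and 10, 2 and 0 in Tespa1+/+. The means after 5-FU, 316 ± 10.2 and 1.3 ± 0.357 CPM (SD, n = 3 each), were 244-fold apart. S100a8 (ENSMUSG00000056054) had 3433, 3219 and 3103 counts in Tespa1-/- against 20, 4 and 10 in Tespa1+/+ LSKs after 5-FU, a ratio of 289.8 between the means, and the fitted log2 fold change of 8.16 became 8.84 without Tespa1+/+ replicate 1. Untreated, S100a8 had 14, 10 and 6 counts in Tespa1-/- and 0, 17 and 0 in Tespa1+/+. The groups overlapped there, and all 17 of the Tespa1+/+ counts came from replicate 2.

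Ltf and Lcn2 encode proteins of secondary granules that withhold iron from microbes. Lactoferrin, the product of Ltf (ENSMUSG00000032496), binds iron directly, and it had 3900, 4093 and 3404 counts in Tespa1-/- and 20, 29 and 6 in Tespa1+/+ LSKs after 5-FU, 212-fold apart. Untreated, Ltf had 7, 4 and 0 counts in Tespa1-/- and none in the 3 Tespa1+/+ libraries, and the groups met at 0. Lipocalin 2, the product of Lcn2 (ENSMUSG00000026822), binds bacterial siderophores. Lcn2 had 1229, 1494 and 1570 counts in Tespa1-/- and 43, 28 and 37 in Tespa1+/+ LSKs after 5-FU, a ratio of 40.5 between the means of 57.9 ± 13 and 1.43 ± 0.311 CPM (SD, n = 3 each). It was the gene of the set whose Tespa1-/- libraries differed most among themselves after 5-FU, with a coefficient of variation of 22.4% where S100a9 had 3.22%. Lcn2 was also the one gene of the set with counts above 3 in all 12 libraries: 16, 17 and 22 in untreated Tespa1-/- and 8, 4 and 6 in untreated Tespa1+/+.

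Camp and Ngp are related genes of the cathelicidin family, and CAMP is cut outside the cell into an antimicrobial peptide. Camp (ENSMUSG00000038357) had 1770, 1892 and 1263 counts in Tespa1-/- LSKs after 5-FU against 0, 0 and 3 in Tespa1+/+. The ratio of the means was 1574, with a 95% interval of 565 to 8017 that covers counting error only. The fitted log2 fold change of 10.51 became 13.69 without Tespa1+/+ replicate 3, which held all 3 counts, and a fit against a group without counts gives no bound. Untreated, Camp had 0, 3 and 13 counts in Tespa1-/- and none in Tespa1+/+. Ngp (ENSMUSG00000032484), neutrophilic granule protein, had 7201, 6397 and 5322 counts in Tespa1-/- and 65, 4 and 26 in Tespa1+/+ LSKs after 5-FU, 199.7-fold apart. Its fitted log2 fold change of 7.63 became 8.69 without Tespa1+/+ replicate 1, which held 65 of those counts. In untreated cells Ngp had 28, 7 and 21 counts in Tespa1-/- and 12, 0 and 0 in Tespa1+/+, and the groups overlapped.

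Fcnb and Cd177 were the members with no count at all in Tespa1+/+ LSKs after 5-FU. Fcnb (ENSMUSG00000026835) encodes ficolin B, a pattern-recognition lectin that starts the lectin pathway of complement. It had 1016, 901 and 776 counts in Tespa1-/- LSKs after 5-FU, at least 300.4-fold above the limit of 3 counts per library in Tespa1+/+, and at most 9 counts in any untreated library. Cd177 (ENSMUSG00000052212), a surface glycoprotein of neutrophils that pairs with proteinase 3, had 761, 868 and 692 counts in Tespa1-/- LSKs after 5-FU and 0 in each of the other 9 libraries. Its level after 5-FU was at least 260.0-fold above that limit in Tespa1+/+ and at least 234-fold above it in untreated Tespa1-/- LSKs.

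Mmp8 and Mmp9 encode metalloproteases, the collagenase of secondary granules and the gelatinase of tertiary granules. Mmp9 (ENSMUSG00000017737) had 730, 609 and 507 counts in Tespa1-/- against 15, 0 and 0 in Tespa1+/+ LSKs after 5-FU, 125-fold apart, with every Tespa1+/+ count in replicate 1. In untreated cells Mmp9 had 3, 0 and 2 counts in Tespa1-/- and 0, 8 and 0 in Tespa1+/+. Mmp8 (ENSMUSG00000005800) had 340, 267 and 241 counts in Tespa1-/- and 26, 6 and 27 in Tespa1+/+ LSKs after 5-FU, 14.3-fold apart, the smallest ratio of the set. Untreated, Mmp8 had 26, 33 and 49 counts in Tespa1-/- and 0, 4 and 11 in Tespa1+/+. Mmp8 thus stood at 1.58 ± 0.509 CPM in untreated Tespa1-/- LSKs and at 0.787 ± 0.484 CPM in Tespa1+/+ LSKs after 5-FU (SD, n = 3 each), 2 groups that were not tested against each other.

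Gene expression was compared between groups with edgeR's quasi-likelihood test, and a call needed a fold change above 1.5 and, over all genes tested, a Benjamini-Hochberg adjusted p below 0.05. All 10 genes were called higher in Tespa1-/- LSKs after 5-FU, where 3.95% of the 17239 genes tested were called higher, and in all 10 every Tespa1-/- library lay above every Tespa1+/+ library, where 17.5% of genes tested had that order. The set was chosen with this contrast known, so nothing is read from those counts. The fitted log2 fold changes were 8.16 (SE 0.27) for S100a8, 7.92 (SE 0.14) for S100a9 and 3.83 (SE 0.45) for Mmp8, and those of Fcnb and Cd177 are left out because they depend on how the fit treats groups without counts. That of Camp, given with its counts, rests on 3 counts in Tespa1+/+.

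In untreated LSKs, a contrast whose part in the choice of the set is not known, 4 of the 10 genes had enough counts to be tested and none was called, where 0.973% of the 17055 genes tested were called higher and 1.54% lower. By edgeR, 3 of the 4 had an unadjusted p below 0.05, and DESeq2 called 1, Mmp8. Mmp8 had a log2 fold change of 2.83 (SE 0.95, adjusted p = 0.151 from edgeR). S100a9 had one of 2.80 (SE 0.995, adjusted p = 0.174) and Lcn2 one of 1.69 (SE 0.60, adjusted p = 0.174), while S100a8 had one of 0.82 (SE 1.35, adjusted p = 0.808). For Mmp8, S100a9 and Lcn2, 3 of the 10 genes, every untreated Tespa1-/- library lay above every untreated Tespa1+/+ library, an order that 12.3% of all genes tested had. The S100a8 estimate hung on single libraries: without Tespa1+/+ replicate 2 it was 6.40 (adjusted p = 0.125). It was 0.22 without Tespa1+/+ replicate 1 and 0.25 without Tespa1+/+ replicate 3. Without Tespa1+/+ replicate 1, S100a9 had 4.48 (adjusted p = 0.0865) and without Tespa1+/+ replicate 3, Mmp8 had 4.18 (adjusted p = 0.073). The lowest values when 1 library was left out were 2.26 for S100a9 and 2.21 for Mmp8. The other 6 genes were too low for the test, which does not show that their levels were alike.

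In Tespa1+/+ mice, the 10 genes stayed at or below 1.43 CPM in the mean after 5-FU. Of 5 genes tested, 1, Lcn2, was called higher after 5-FU than before, where 2.74% of the 17002 genes tested were called higher. Its counts rose from 8, 4 and 6 to 43, 28 and 37, a 5.83-fold ratio of means, but the call was lost when any 1 of the 6 libraries was left out. S100a9 went from 10, 2 and 0 to 42, 24 and 32 counts, 8.72-fold between means. Its fitted log2 fold change was 3.03, or 4.71 without untreated replicate 1. Ltf went from 0, 0 and 0 to 20, 29 and 6 counts. These values share the Tespa1+/+ libraries after 5-FU with the contrast that chose the set. In Tespa1-/- mice, all 10 genes were called higher after 5-FU, where 6.0% of the 17228 genes tested were called higher. The Tespa1-/- libraries after 5-FU are the high group the set was chosen by, so nothing is read from that count. Cd177 had no count in untreated Tespa1-/- cells. For the other 9 genes the ratio of means within Tespa1-/- ran from 7.10 for Mmp8 and 71.9 for Lcn2 to 939 for Ltf, whose untreated level rested on 11 counts in all and whose fitted log2 fold change of 9.82 became 10.66 without untreated replicate 1.

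The interaction of genotype and treatment asks whether the genotype difference after 5-FU exceeded that in untreated cells. It was called for S100a8, S100a9, Lcn2 and Fcnb, 4 of the 10 genes, where 1.66% of the 18696 genes tested were called higher, but this contrast contains the one the set was chosen by, and nothing is read from that count. Without Tespa1+/+ untreated replicate 2 it was called for 2, Lcn2 and S100a9, and without Tespa1+/+ replicate 1 after 5-FU for 6. The value of S100a8, 7.28 in all libraries, was 1.72 without Tespa1+/+ untreated replicate 2, and that of S100a9, 5.20, was 3.44 without Tespa1+/+ untreated replicate 1, and neither was then called. For Mmp8 the fitted difference was 0.97 (SE 1.01) on the log2 scale, and -0.38 without Tespa1+/+ untreated replicate 3. For Ltf, Camp and Cd177, which had no count in a whole group, the standard errors exceeded the estimates, and these are not given.

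Within Tespa1-/- LSKs after 5-FU, the genes could be ranked per length by FPKM, the deposited value scaled by transcript length and library depth. S100a9 stood highest at 433 ± 13.5 FPKM (SD, n = 3), followed by Ngp at 204.5 ± 9.19, S100a8 at 132 ± 9.21 and Camp at 85.6 ± 10.5. Ltf (27.2 ± 1.48), Fcnb (23.4 ± 0.806), Lcn2 (11.9 ± 2.69), Cd177 (9.98 ± 0.939), Mmp9 (6.17 ± 0.502) and Mmp8 (4.62 ± 0.444) came next on the same FPKM scale. Neighbours in this order did not overlap between libraries, except Lcn2 and Cd177, whose ranges were 9.20 to 14.6 and 8.98 to 10.8 FPKM. By FPKM, S100a9 stood between place 115 and place 123 of all 53465 genes in these libraries, and between place 10130 and place 12413 in Tespa1+/+ LSKs after 5-FU. For scale, Mpo (myeloperoxidase, the main enzyme of primary granules) was at 748 ± 45.9 FPKM (SD, n = 3) in the same Tespa1-/- libraries.

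The make-up of the set varied little over the 3 Tespa1-/- libraries after 5-FU. S100a9 took 45.5% to 47.0% of the summed FPKM of the 10 genes, Ngp 21.3% to 22.5%, S100a8 13.3% to 15.4% and Camp 8.13% to 10.3%. The calprotectin subunits were unequal at the RNA level, with 3.53, 3.37 and 2.98 times as much S100a9 as S100a8 per length. Ngp exceeded Camp by 2.52, 2.10 and 2.61 times, and Mmp9 exceeded Mmp8 by 1.32, 1.40 and 1.29 times. In the other 9 libraries the same shares rest on 17 to 231 counts and are not given.

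**Figure D2:**
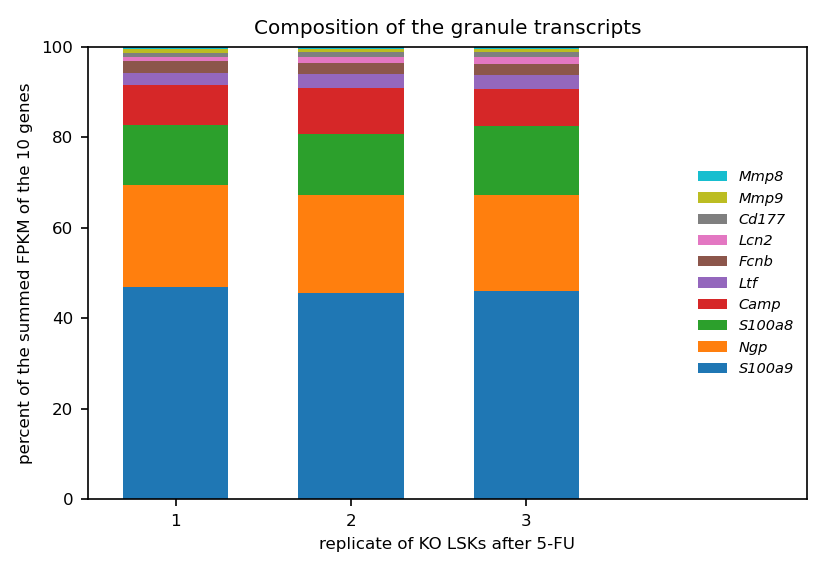
Share of each gene in the summed FPKM of the 10 genes, in percent, for the 3 replicates of Tespa1-/- (KO) LSKs after 5-FU; each bar is 1 library and its segments stack to 100%. S100a9, Ngp, S100a8 and Camp fill most of each bar, and S100a9 alone takes 45.5% to 47.0%.

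Transcription factors linked to blood cell development were examined as a list of 12 genes, all of them tested. They were Cebpa, Cebpb, Cebpd, Cebpe, Gfi1, Spi1, Runx1, Stat3, Klf5, Lef1, Irf8 and Myb. Of these, 5 were called higher in Tespa1-/- LSKs after 5-FU and none lower, with a median log2 fold change of 0.19 where the median of all genes tested was -0.01. Cebpe, the factor required for secondary granules, had 342, 256 and 255 counts in Tespa1-/- and 0, 33 and 13 in Tespa1+/+ LSKs after 5-FU, a log2 fold change of 4.21 (SE 0.74, adjusted p = 0.00541 from edgeR). Gfi1, a repressor that works with it, rose from 17.2 ± 5.15 to 41.7 ± 3.92 CPM (SD, n = 3 each; log2 fold change 1.27, adjusted p = 0.00411). Klf5, Cebpd and Cebpa, which act in granulocytic differentiation, also rose, by log2 fold changes of 1.43, 0.73 and 0.67 (adjusted p of 0.027, 0.00659 and 0.0114). The number called fell from 5 to 3 without Tespa1-/- replicate 2 or without Tespa1+/+ replicate 1. In untreated LSKs, Cebpb and Klf5 were the 2 called, both lower in Tespa1-/-. Cebpb, the factor of emergency granulopoiesis, measured 203 ± 7.30 CPM in Tespa1+/+ against 99.3 ± 1.69 CPM in Tespa1-/- cells (SD, n = 3 each; log2 fold change -1.03, adjusted p = 3.3e-05), and Klf5 had a log2 fold change of -1.40 (adjusted p = 0.0489). The number called lower fell to 1 with the replicate block and when any library but Tespa1+/+ replicate 1 was left out.

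**Figure D3:**
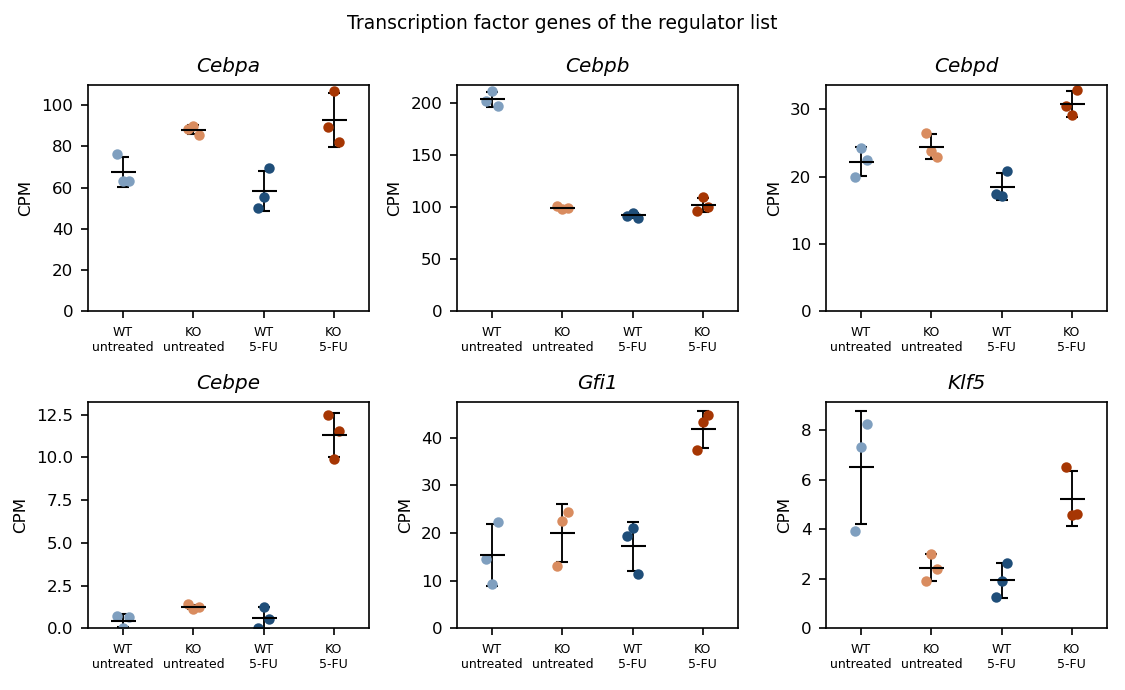
Levels of 6 transcription factor genes in CPM in the 4 groups; points are libraries, horizontal marks are means and bars are SDs (n = 3), with WT for Tespa1+/+ and KO for Tespa1-/-. Cebpe sits at 11.3 ± 1.3 CPM in KO LSKs after 5-FU and at 1.26 CPM or less in the mean elsewhere, whereas Cebpb is highest in untreated WT LSKs.

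Genes of primary granules, which precede the set in maturation, were expressed in all 4 groups, except Bpi, which had no count in 3 of them. Of 8 such genes, 7 were tested and all 7 were called higher in Tespa1-/- LSKs after 5-FU, with a median log2 fold change of 1.03. Elane, neutrophil elastase, rose from 144 ± 1.62 to 472 ± 20.4 CPM (SD, n = 3 each; log2 fold change 1.71, adjusted p = 1.3e-07 from edgeR), and Ms4a3, a marker of granulocyte and monocyte progenitors, from 29.8 ± 1.90 to 84.2 ± 2.60 CPM (log2 fold change 1.49, adjusted p = 1.0e-05). The changes of Ctsg (cathepsin G), Prtn3 (proteinase 3) and Mpo were 1.03, 1.02 and 0.73 on the same scale. In untreated LSKs, 3 of the 7, Ms4a3, Elane and Ctsg, were already called higher in Tespa1-/-, with log2 fold changes of 0.91, 0.75 and 0.62 (adjusted p of 0.0134, 0.000609 and 0.000656). Mpo stood at 2293 ± 52.2 CPM in untreated Tespa1+/+ LSKs (SD, n = 3), in which each of the 10 genes of the set was at or below 0.252 CPM in the mean.

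A further list held 18 other genes of neutrophil granules and membranes. Of the 16 tested after 5-FU, 13 were called higher in Tespa1-/- and 1 lower, with a median log2 fold change of 1.77. Chil3, a chitinase-like protein of maturing neutrophils, was at 53.1 ± 4.12 CPM in Tespa1-/- LSKs after 5-FU (SD, n = 3) and had 1 library above 0 among the other 9, at 0.116 CPM. Wfdc21 was at 9.89 ± 1.85 CPM and Itgb2l at 9.03 ± 2.65 CPM in those Tespa1-/- libraries (SD, n = 3), against no count and 0.221 ± 0.383 CPM in Tespa1+/+ LSKs after 5-FU. Pglyrp1, a peptidoglycan-binding protein of secondary granules, rose by a log2 fold change of 2.73 (adjusted p = 0.00392 from edgeR). Its Tespa1+/+ libraries after 5-FU were uneven, at 6.862, 2.505 and 1.57 CPM. Padi4, the enzyme that citrullinates histones in neutrophils, was the 1 gene called lower after 5-FU, where 3.03% of all genes tested were called lower (log2 fold change -0.68, adjusted p = 0.00846), and it was lower in untreated Tespa1-/- LSKs as well (log2 fold change -1.08, adjusted p = 0.00385). Padi4 was not called after 5-FU without Tespa1+/+ replicate 1. Untreated, Cybb, a subunit of the phagocyte oxidase, was the 1 gene of 11 tested that was called higher, by 0.73 (adjusted p = 0.03), and that call was lost with the replicate block and when any library but Tespa1+/+ replicate 1 was left out.

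Genes of late neutrophils, the receptors and secreted factors of the segmented cell, behaved unevenly. Of 16 genes, 15 were tested after 5-FU and 7 were called higher in Tespa1-/-, a number that fell to 3 without Tespa1-/- replicate 1. Retnlg, a resistin-like secreted protein, stood at 12, 8.45 and 11.4 CPM in the Tespa1-/- libraries after 5-FU, while the 3 Tespa1+/+ ones gave no read for it. Il1b, Fpr1 and Fpr2 were called as well, but at levels of 1.13 to 1.89 CPM in the mean. Ccl6 (log2 fold change 2.92), Ifitm6 (3.43) and Trem3 (1.59) were the other 3 called, and DESeq2 called 8 of the list. The Tespa1+/+ libraries after 5-FU were uneven for Ifitm6, at 0.195, 1.35 and 0.0826 CPM. Ly6g, the antigen by which neutrophils are gated, named after its values were seen, was at 1.57, 0.581 and 1.58 CPM in Tespa1-/- and at 0, 0 and 0.248 CPM in Tespa1+/+ LSKs after 5-FU (log2 fold change 3.86, adjusted p = 0.0722 from edgeR). The lineage cocktail in the study's methods included antibodies to Gr-1 and CD11b, which bind neutrophils, and mature cells were also depleted before the sort. Itgam, which encodes CD11b and is named after its values were seen, was called higher in Tespa1-/- LSKs after 5-FU. It was at 71.1 ± 6.14 CPM against 32.4 ± 3.89 CPM in Tespa1+/+ (SD, n = 3 each). The log2 fold change was 1.13 (adjusted p = 0.00027 from edgeR). Whether neutrophils passed the sort was not tested.

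Of 13 receptors and inhibitors of the products of the set, 11 were tested after 5-FU. Of these, 1 was called higher and 1 lower, where 3.95% of all genes tested were called higher and 3.03% lower, and the median log2 fold change was 0.04. Itgb2, the beta chain that pairs with Itgam in the integrin Mac-1, measured 31.3 ± 8.92 CPM in Tespa1+/+ against 95.0 ± 8.09 CPM in Tespa1-/- cells (SD, n = 3 each; log2 fold change 1.60, adjusted p = 0.000668 from edgeR). Cd33 was lower after 5-FU and untreated, by -0.79 (adjusted p = 0.0218) and -0.60 (adjusted p = 0.0161) on the log2 scale. The call after 5-FU was lost without Tespa1-/- replicate 1 or 3 or Tespa1+/+ replicate 1 or 2. The untreated call was lost with the replicate block and without any 1 Tespa1-/- library or Tespa1+/+ replicate 3.

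Among markers of other lineages, most eosinophil, basophil, mast cell and erythroid genes were called higher in the same libraries as the set. Few or no monocyte, T and NK cell and B cell genes were called. Of all genes tested after 5-FU, 3.95% were called higher and 3.03% lower. Of 8 genes of eosinophils, basophils and mast cells, 7 were called higher in Tespa1-/- LSKs after 5-FU, and their summed level was 802 to 898 CPM there against 168 to 202 CPM in Tespa1+/+. Epx and Prg2, the peroxidase and the major basic protein of eosinophils, were at 201 ± 13.4 and 391 ± 7.61 CPM in those Tespa1-/- libraries (SD, n = 3), and Epx had 0.0648 ± 0.0812 CPM in Tespa1+/+ LSKs after 5-FU. Of 8 erythroid genes, all 8 were called higher, with summed levels of 343 to 360.5 against 46.2 to 61.3 CPM; reads of Hba-a1 and Hbb-bs could be split with near-identical copies. Of 8 monocyte genes, 1 (F13a1) was called higher and 1 (Ms4a6c) lower, with sums of 550.5 to 569 against 467 to 503 CPM. T and NK cell genes summed to 11.3 to 17.1 against 3.18 to 8.05 CPM, with 1 of 7 tested (Cd3e, at 0 in Tespa1+/+) called higher. That number was 0 without Tespa1-/- replicate 1 or 2 and with the replicate block, and 2 without Tespa1+/+ replicate 1. Of 8 B cell genes none was called by edgeR or DESeq2 (4 had an unadjusted p below 0.05), with sums of 471 to 479 against 402 to 417 CPM.

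The LSK markers went the other way. Of 10 such genes, 6 were called lower in Tespa1-/- LSKs after 5-FU and none higher, and their sum was 800.4 to 868 CPM against 1329 to 1374 CPM in Tespa1+/+. Ly6a, which encodes Sca-1, had a log2 fold change of -1.24 (adjusted p = 0.0265 from edgeR), Hlf one of -1.16 (adjusted p = 0.00453) and Flt3 one of -0.89 (adjusted p = 1.2e-05). Kit, the gene of the other sort marker, had 342 ± 11.9 CPM in Tespa1-/- against 467 ± 7.09 CPM in Tespa1+/+ cells (SD, n = 3 each). The difference, -0.45 on the log2 scale (SE 0.04, adjusted p = 0.00022 from edgeR), fell short of the fold that a call required. The part of other lineages and of a change in the make-up of the sorted cells in the result for the set was not tested. In untreated LSKs the sums of the eosinophil, basophil and mast cell genes (100.1 to 124 against 82.3 to 94.3 CPM), of the erythroid genes (53.2 to 61.1 against 19.4 to 28.1 CPM) and of the monocyte genes (556 to 587 against 476 to 538 CPM) lay higher in every Tespa1-/- library. The sums of the B cell genes (54.2 to 60.9 against 80.1 to 92.5 CPM, 3 of 8 called lower) and of the LSK markers (1332 to 1385 against 1600.4 to 1672 CPM, 1 of 10 called lower) lay lower in every Tespa1-/- library, and those of the T and NK cell genes overlapped. Of the sum of the eosinophil, basophil and mast cell genes, Gata2 alone made up 97.8 against 75.4 CPM in the mean, and it was not called (adjusted p = 0.0866 from edgeR). In the monocyte sum, F13a1 had 206 against 104 CPM in the mean and was called higher. Klf4, of the same list, had 83.2 against 147 CPM and was called lower.

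**Figure D4:**
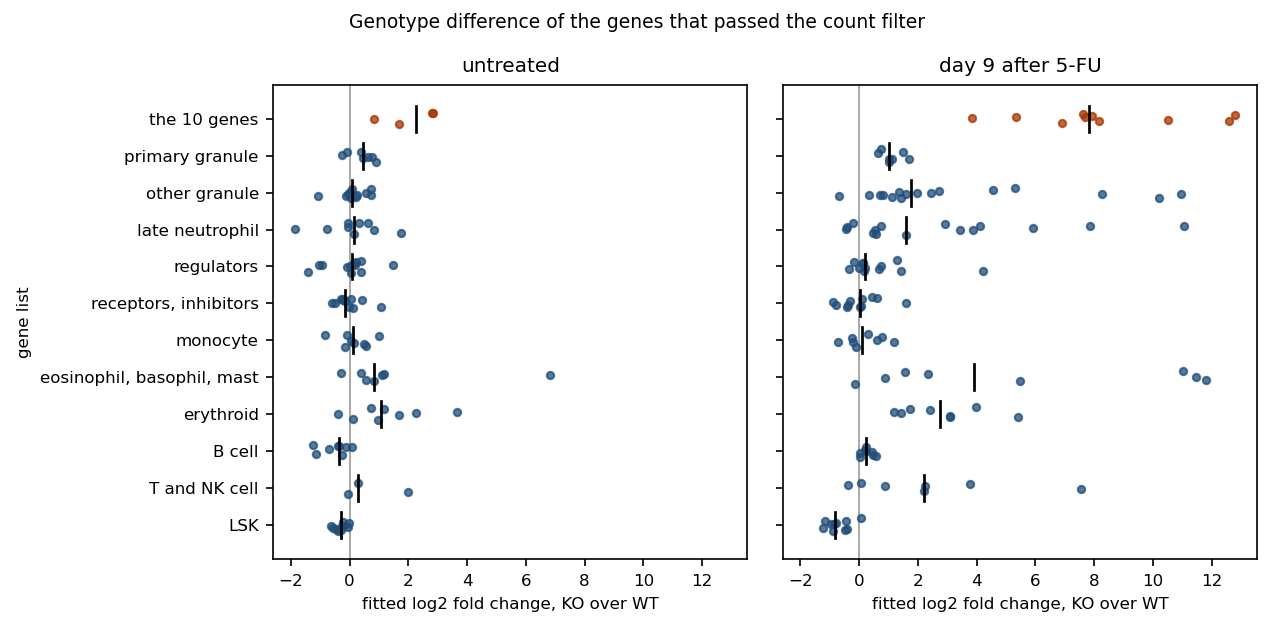
Fitted log2 fold change of Tespa1-/- (KO) over Tespa1+/+ (WT) LSKs for each gene tested, by gene list, in untreated cells and at day 9 after 5-FU; points are genes, vertical marks are list medians, and the 10 genes of the set are in dark orange and the others in blue. After 5-FU the set lies furthest right, with the eosinophil and erythroid lists also shifted and the LSK list on the left of 0; fitted values above 10 belong to genes with at most 14 counts in any WT library after 5-FU.

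Across the 12 libraries the 10 genes shared 1 pattern. The correlation of each with the mean of the other 9 on the log2(CPM + 1) scale was 0.992 to 0.997, apart from Mmp8 at 0.948 (n = 12 libraries). With 3 libraries high and 9 low, such a correlation measures that step and little else. Among 14919 other genes with a mean of at least 1 CPM, the 10 with the highest correlation with the mean of the set (0.994 to 0.997, n = 12 libraries) were Ear6, Epx, Slfn4, Chil3, Slfn1, Slc4a1, Pilra, Prg2, Alox15 and Gzma. Ear6, Epx and Prg2 encode eosinophil granule proteins, Slc4a1 the anion exchanger of red cells, and Gzma a granzyme of cytotoxic lymphocytes. Ear6, at 27.0 ± 2.46 CPM in Tespa1-/- LSKs after 5-FU (SD, n = 3), belongs to a family of near-identical ribonuclease genes, so its counts are uncertain. Slc4a1 was at 93.7 ± 6.08 CPM and Gzma at 10.8 ± 1.32 CPM in the same libraries (SD, n = 3), and both were below 1 CPM in the mean of each other group.

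The genes lie on 4 chromosomes of GRCm38, at the positions that GENCODE M21 gives, and no other annotated gene overlaps any of them on either strand. S100a8 (chr3:90668978-90670035, plus strand) and S100a9 (chr3:90692632-90695721, minus strand) are 22.6 kb apart. Camp (chr9:109847379-109849617, minus strand), Ngp (chr9:110419747-110423012, plus strand) and Ltf (chr9:111019271-111042767, plus strand) follow each other at distances of 570.1 and 596 kb, and Mmp8 (chr9:7558456-7568485, plus strand) lies far from them. Fcnb (chr2:28076378-28084885, minus strand), Lcn2 (chr2:32384633-32388252, minus strand), Mmp9 (chr2:164940780-164955850, plus strand) and Cd177 (chr7:24743983-24760311, minus strand) complete the set.

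Between Camp and Ltf lie 15 other protein-coding genes with a mean of at least 1 CPM, and none was called after 5-FU by edgeR or DESeq2 (3 had an unadjusted p below 0.05), with log2 fold changes of -0.92 to 0.35. Nme6, 4.26 kb from Camp, had a log2 fold change of 0.35 (SE 0.29), Klhl18, 2.91 kb from Ngp, one of 0.25 (SE 0.27) and Ccrl2, 11.7 kb from Ltf, one of -0.34 (SE 0.14). S100a6, a member of the same S100 family 44.8 kb from S100a8, had one of 0.81 (adjusted p = 0.0661 from edgeR). Of the 18 nearest neighbours of the 10 genes that are not themselves in the set, 2 were called higher after 5-FU and none lower by edgeR, where 3.95% of all genes tested were called higher, and DESeq2 called 3. The 2 were Col5a1, next to Fcnb (log2 fold change 1.88, adjusted p = 0.002), and Ptges2, next to Lcn2 (0.80, adjusted p = 0.0322).

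**Figure D5:**
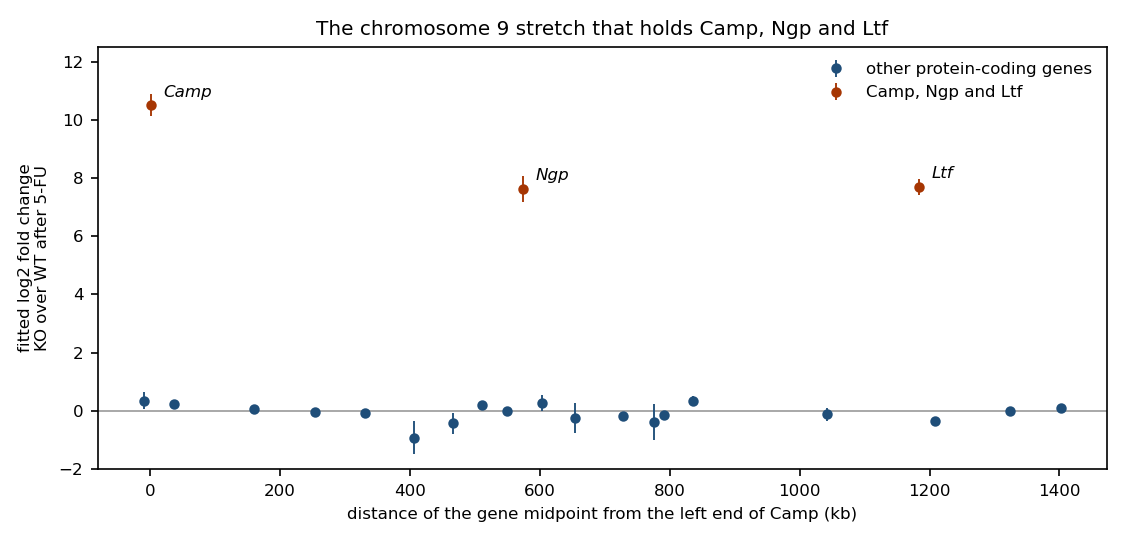
Fitted log2 fold change of Tespa1-/- (KO) over Tespa1+/+ (WT) LSKs after 5-FU for genes around Camp, Ngp and Ltf. Genes shown are protein-coding with a mean of at least 1 CPM. The horizontal axis is the distance of each gene's midpoint from the left end of Camp in kb. Bars are SEs implied by the test statistic of the fit. The 3 genes of the set stand above 7 and the 15 other genes between Camp and Ltf lie from -0.92 to 0.35.

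A window of 250 bases before and 50 after a RefSeq start was available for 9 of the 10 genes, in a table of GRCm38.p6 with 32851 such windows. Mmp9 was not among them. The window of Lcn2 belongs to a start inside the annotated gene and holds annotated exon sequence, so it is not the region before the gene's first exon. The letters TTNNGNAA, a C/EBP core, or TTNCNNAA on the other strand, occurred in 7 of the 8 other windows, in that of Lcn2 and in 40.7% of all windows. GGAAGT, a core bound by PU.1 and other ETS factors, or ACTTCC on the other strand occurred in 5 of the 9 and in 23.8% of all windows. TGTGGT, a RUNX core, or ACCACA on the other strand occurred in 2 of the 9 and in 16.8% of all windows. Upstream of the exon at the start, no match of one motif overlapped a match of another in these 9 windows. A match is a description of the letters and not a site of binding.

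Shown here, 5′ to 3′ on the strand of the gene and ending before the first annotated exon, are the upstream windows of the most abundant genes, S100a9 (chr3:90695722-90695971, minus strand) and Ngp (chr9:110419558-110419746, plus strand). With them are the windows of the genes with no count in Tespa1+/+ LSKs after 5-FU, Fcnb (chr2:28084886-28085128, minus strand) and Cd177 (chr7:24760312-24760561, minus strand), and of Camp (chr9:109849618-109849706, minus strand), whose window has no C/EBP match. Capitals mark the C/EBP matches.
S100a9: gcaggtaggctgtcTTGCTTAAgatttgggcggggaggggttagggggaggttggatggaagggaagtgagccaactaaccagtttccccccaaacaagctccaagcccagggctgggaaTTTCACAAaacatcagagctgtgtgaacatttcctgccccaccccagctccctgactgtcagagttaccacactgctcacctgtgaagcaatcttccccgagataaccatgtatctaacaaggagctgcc
Ngp: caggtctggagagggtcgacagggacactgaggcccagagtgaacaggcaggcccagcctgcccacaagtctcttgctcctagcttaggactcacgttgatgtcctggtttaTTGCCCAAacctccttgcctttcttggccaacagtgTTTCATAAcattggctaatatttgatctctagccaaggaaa
Fcnb: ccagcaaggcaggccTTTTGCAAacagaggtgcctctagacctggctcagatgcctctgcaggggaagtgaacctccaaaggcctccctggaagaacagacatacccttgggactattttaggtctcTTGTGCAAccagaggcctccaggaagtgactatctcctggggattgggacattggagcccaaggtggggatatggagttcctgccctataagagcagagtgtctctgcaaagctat
Cd177: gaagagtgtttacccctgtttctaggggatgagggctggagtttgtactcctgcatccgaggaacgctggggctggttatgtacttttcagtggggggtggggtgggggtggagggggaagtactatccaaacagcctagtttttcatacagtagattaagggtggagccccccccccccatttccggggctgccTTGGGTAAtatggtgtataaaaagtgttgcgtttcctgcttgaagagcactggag
Camp: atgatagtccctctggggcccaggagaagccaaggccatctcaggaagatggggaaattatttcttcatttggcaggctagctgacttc

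The matches lay 236 and 130 bases before the RefSeq start in S100a9, 138 and 102 in Ngp, 235 and 123 in Fcnb, and 55 in Cd177.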

How the data were processed

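Per the labels and the submitters' processing notes, the authors made stranded poly-A libraries, sequenced them in pairs and used CASAVA 1.8, HISAT2, StringTie and edgeR with GRCm38; the notes give no order, and the annotation release is not given in the sources used here. The deposited table holds raw read counts and FPKM for each gene and library, both made by the authors. All 12 libraries were used, with groups taken from the labels.

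From the counts, 5 comparisons were fitted by edgeR 4.0.16 (filterByExpr, TMM, quasi-likelihood test; R 4.3.3) over all genes passing the filter. The 2-group fits used only the 6 libraries compared and the interaction used all 12. A call needed a fold change above 1.5 together with an adjusted p (Benjamini-Hochberg) below 0.05. Each SE of a fitted change was derived from the test, as the absolute log2 fold change over the square root of the F statistic. It can be too small where counts are few, as for Camp with 3 counts in Tespa1+/+ LSKs after 5-FU. CPM used TMM factors, and correlations used a pseudocount of 1. The scripts were tested on simulated data. Alternatives were DESeq2 1.42.0, other scalings, filters and thresholds, 1 fit of all libraries, the replicate block and leaving out each library.

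The 10 genes and the 11 gene lists were chosen with earlier results of these data known. Beyond the 10 genes, the text names called genes picked from each list, not always those with the largest change, and a few that were not called. It also names Tespa1, the nearest expressed neighbours and the 10 most correlated genes. Intervals and detection limits cover counting error only.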

Additional observations from a re-analysis of the deposited data

Results flagged for a closer look

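The genotype difference after 5-FU and that in untreated LSKs were set against each other by edgeR's interaction term, for which 1.66% of all genes tested were called higher. For the 10 genes this term contains the contrast on which the set was chosen, so their values are a description: S100a8 had 7.28, S100a9 had 5.20 and Lcn2 had 3.65, as log2 differences between the genotype effects. S100a8 had 1.72 without Tespa1+/+ untreated replicate 2 and S100a9 had 3.44 without Tespa1+/+ untreated replicate 1, and the call of each was lost there. Called higher were 3 of 7 genes tested of the primary granule list, 8 of 17 of the other granule list, 4 of 15 of the late neutrophil list and 2 of 12 of the regulators. Those among the genes with the largest changes after 5-FU are given here. The primary granule genes Prss57, Elane and Ms4a3 had 1.37, 0.96 and 0.59. Pglyrp1 had 2.48 and Ccl6 had 2.29, and Klf5, which was lower in untreated and higher in 5-FU-treated Tespa1-/- LSKs, had 2.83. The fitted values of Fcnb (12.69), Retnlg (15.44) and Wfdc21 (17.00) rest on groups without counts, and that of Il1b (7.82) on groups with at most 3 counts in a library, and they do not measure the size of the change.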

How the results depend on the processing

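Of 77 recounts of the genes called, 62 stayed within 1.5 times the value reported. Many of them share the libraries that chose the set or set 0 against 0, so nothing is read from that number. In untreated LSKs, 0 were called, against 1 by DESeq2 and 3 with all 12 libraries in 1 fit, and 0 to 0 when any 1 library was left out. For 5-FU in Tespa1+/+ the 1 call became 2 by DESeq2, 3 with all 12 libraries in 1 fit, 0 without the filter, 0 with the replicate block and 0 to 0 when 1 library was left out. A minimum of 10 counts in every library left 2 genes tested and called after 5-FU and 3 for 5-FU in Tespa1-/-, since it removes genes low in 1 group, and left none to test elsewhere. The interaction calls ran from 2 to 6 when 1 library was left out. Among the fitted changes of the 10 genes, only the interaction of Mmp8, which was not called, took both signs (-0.38 to 1.61 when 1 library was left out). The replicate numbers did not pair the libraries (correlations of deviations -0.046 to 0.031 over 14929 genes), and the replicate block changed no other count of the 10 genes called beyond that in Tespa1+/+. Among the lists, late neutrophil genes called after 5-FU ran from 2 to 8 against 7, and LSK genes called lower from 2 to 7 against 6. Low counts of the 10 genes in 9 of the 12 libraries limit every ratio of these genes between groups.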
